A study of Mus musculus with 16 samples.

Results

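The comparison described here sets quadriceps muscle of wild-type (WT) mice fasted for 24 h against quadriceps of WT mice with free access to food. It takes in the 4 arrays labelled WT_Fasted and the 4 labelled WT_Fed, which are 8 of the 16 arrays of the study, and its members were chosen by those labels alone. Each array held Cy3-labelled total RNA of male mice aged 8 weeks. The labels number 4 replicates a group without stating that each was a separate animal, so the word mouse stands here for 1 array and its RNA. The fasted mice were kept in individual cages during the fast, and no strain is named in the sources used here. The other 8 arrays came from age-matched mFoxO-TKO mice, again 4 fed and 4 fasted, in which a Cre recombinase under the human alpha-actin (HSA) promoter had removed 3 FoxO genes (Foxo1, Foxo3, Foxo4) from skeletal muscle fibres. WT mice carry all of these genes, and the mFoxO-TKO arrays serve here to estimate the spread between mice and, at the end, to show where the 2 genotypes differed in their response to the fast.

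A day without food lowers insulin and raises glucagon, adrenaline and glucocorticoids. Skeletal muscle then spares glucose for the brain and burns fatty acids and ketone bodies, and it breaks down part of its own protein through the ubiquitin-proteasome system and through autophagy, which releases amino acids to the liver. Among the factors known to carry these signals into the nucleus are the FoxO proteins, which insulin signalling holds in the cytoplasm, the glucocorticoid receptor, the PPAR receptors that sense fatty acids, and TFEB and related factors that bind E-boxes and switch on autophagy genes. The core clock factors BMAL1 and CLOCK, and MYC, read the same E-box.

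Throughout, a level is the log2 of a gene's Cy3 signal minus the 75th percentile of its array, so that a level of 0 equals that percentile. A change is the mean level of the fasted mice minus that of the fed mice, given ± its standard error from limma, and n is 4 mice a group unless a smaller number is stated. On this scale a change of 1 is a 2-fold difference, and folds are 2 to the power of the change. A gene passed where its Benjamini-Hochberg adjusted p over all 21273 genes tested was under 0.05, and only genes that passed are said to have risen or fallen. Mice are called by the replicate numbers of the labels. The p-values measure the spread between these samples, which may in part be technical. In counts of a gene list, a listed gene that is not counted as tested had no probe on the array or none that all 4 arrays of some group detected well above background, and where no full list size is given at most 2 genes were lost that way.

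Promoter sequence was taken from RefSeq windows (build GRCm38.p6) that run from 250 bases before to 50 bases after the start of a gene. The stretches shown here belong to 7 genes that rose after the fast, and they hold the letters read by 3 of the factor families just named. In the first set the capitals mark the FoxO heptamer GTAAACA or its reverse complement, and in Trim63 also the palindromic core ACANNNTGT of a glucocorticoid response element. Trim63 encodes the atrophy ubiquitin ligase MuRF1, Klf9 a zinc-finger repressor, and Rnf39 a RING finger protein.
Trim63: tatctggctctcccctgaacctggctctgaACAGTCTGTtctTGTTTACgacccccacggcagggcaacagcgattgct
Klf9: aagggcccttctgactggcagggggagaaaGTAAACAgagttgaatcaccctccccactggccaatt
Rnf39: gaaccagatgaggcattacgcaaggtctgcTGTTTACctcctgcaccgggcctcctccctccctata

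The Trim63 stretch lies at chr4:134314884-134314962 on the plus strand, with the glucocorticoid core starting 206 and the FoxO heptamer 194 bases before the gene's start. That of Klf9 lies at chr19:23141096-23141162 on the plus strand, with the heptamer 100 bases before the start. The Rnf39 stretch is at chr17:36942824-36942890 on the plus strand, and its heptamer begins 197 bases before the start. All 3 are upstream of the transcribed part of the gene.

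In the second set the capitals mark the E-box CACGTG, which is its own reverse complement. Klf15 encodes a zinc-finger factor of amino acid breakdown, Ciart a repressor of the circadian clock, Slc43a1 a carrier of large neutral amino acids and Il6ra the receptor of interleukin 6.
Klf15: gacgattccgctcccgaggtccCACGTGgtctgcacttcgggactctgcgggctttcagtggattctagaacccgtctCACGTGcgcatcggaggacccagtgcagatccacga
Ciart: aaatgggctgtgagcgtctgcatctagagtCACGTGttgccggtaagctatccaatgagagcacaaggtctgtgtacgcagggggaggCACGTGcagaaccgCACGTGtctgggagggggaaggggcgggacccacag
Slc43a1: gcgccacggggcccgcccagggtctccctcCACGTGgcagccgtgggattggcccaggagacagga
Il6ra: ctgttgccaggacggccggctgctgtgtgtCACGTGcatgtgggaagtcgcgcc

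These lie at chr6:90462326-90462439 (Klf15, plus strand), chr3:95882237-95882374 (Ciart, minus strand), chr2:84840229-84840294 (Slc43a1, plus strand) and chr3:89913197-89913250 (Il6ra, minus strand). The Klf15 window held 3 E-boxes, at 228, 172 and 3 bases before the start, of which the first 2 are printed. Ciart held 3 as well, at 116, 58 and 44 bases before its start. Slc43a1 had 1 at 64 bases and Il6ra 1 at 24 bases. Genes that fell could hold the same letters, among them Sypl2, Ache and Slc25a1, all described further on.

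A window was found for 9001 of the tested genes. The FoxO heptamer stood on either strand in 2.60% of these windows, in 3.69% of the 1356 windows of genes that rose, in 2.47% of the 1257 windows of genes that fell, and in 6.52% of the 92 windows of genes that rose at least 4-fold. For the E-box the same 4 shares were 9.97%, 12.8%, 6.84% and 16.3%, and for the glucocorticoid core 4.24%, 4.57%, 3.66% and 10.9%. The cAMP response element TGACGTCA was found in 3.11%, 3.32%, 2.47% and 4.35%, and the metal response element TGCACNC in 13.1%, 11.8%, 15.1% and 15.2%. Counts behind the smallest group were 6 windows with the heptamer, 15 with the E-box and 10 with the glucocorticoid core. A further 5 motifs were searched and stood in at most 0.644% of all windows each: the C/EBP-ATF composite TGATGCAA, the D-box TTATGTAA, the sterol regulatory element TCACCCCAC, the PPAR response element and the serum response element. The median GC content of the windows was 60.3% in all, 61.0% in those of genes that rose and 60.7% in those of genes that fell. These shares describe letters within 300 bases and were not tested. Each motif was searched by itself on both strands, so letters could be shared, as if the closing TGT of a glucocorticoid core opened the FoxO letters TGTTTAC. In the Trim63 stretch shown above the motifs do not overlap.

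**Figure D1:**
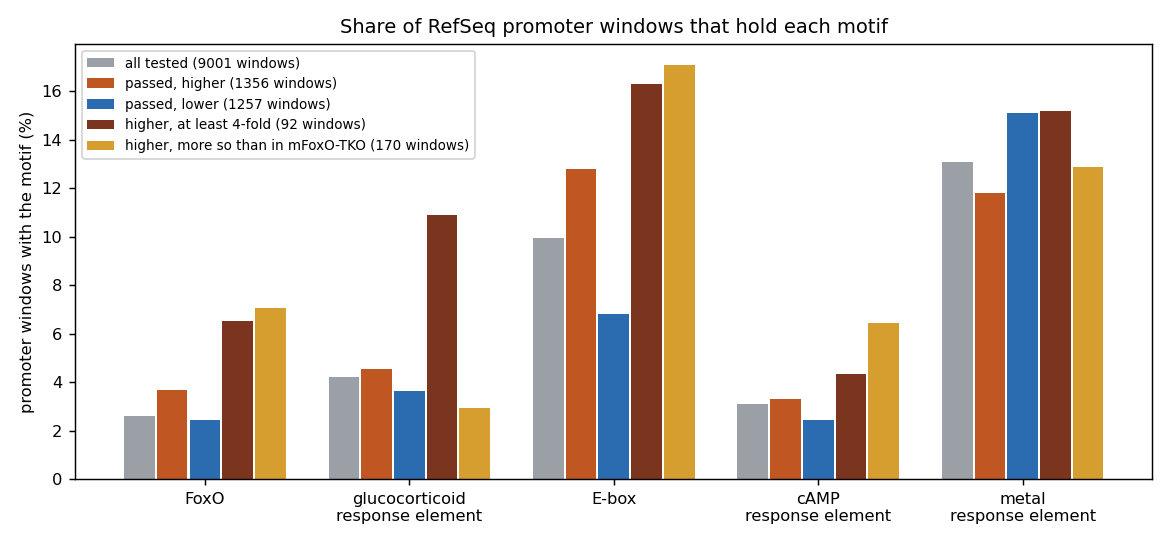
Bars give the share (%) of RefSeq promoter windows that hold each of 5 motifs on either strand, for all tested genes, genes that passed higher or lower after the fast in WT muscle, genes that rose at least 4-fold, and genes that rose and did so more than in mFoxO-TKO muscle. E-boxes stood in 12.8% of the windows of genes that rose and in 6.84% of those of genes that fell, against 9.97% of all windows.

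The tissue carried the markers of its label. All 18 markers of skeletal muscle were well above background on all 8 WT arrays, and the summed linear signal of the 16 with a value on each, as a multiple of the array's 75th percentile, ran from 4090 to 4700 in the fed and from 3740 to 5100 in the fasted mice. Markers of other cells in the tissue were detected in both groups too: over markers with a value on all 8 arrays, the summed signal of 8 of 10 fibroblast markers was 427 to 627 in fed and 380 to 553 in fasted mice, that of 10 of 11 endothelial markers 60.9 to 83.5 and 53.6 to 81.8, and that of 6 of 7 fat cell markers 255 to 320 and 248 to 304. Lower sums were found for 8 smooth muscle and pericyte markers (44.0 to 65.0 and 36.0 to 45.3), 8 macrophage markers (26.7 to 34.3 and 27.3 to 32.0), 6 Schwann cell markers (16.9 to 23.5 and 10.5 to 18.8), 6 satellite cell markers (4.42 to 4.87 and 3.64 to 5.70), 3 of 6 neutrophil markers (1.13 to 1.95 and 1.37 to 2.30) and 4 of 8 T and B cell markers (1.90 to 2.53 and 1.65 to 2.35). Red blood cell markers summed to 97.7 to 131 and 95.7 to 148. For the 2 of 6 liver cell markers tested the fasted sums, 20.7 to 34.0, lay above the fed sums, 5.51 to 12.1. Of these, Cyp2e1 rose (1.45, adjusted p = 0.00464) and Serpina1a did not pass (0.425, adjusted p = 0.511). Their mean levels overlapped slightly, at -0.831 to -0.125 in fed and -0.128 to 1.04 in fasted mice. The liver genes Alb, Apoa1, Ttr and Fgb were on the array but were not detected well enough to be tested. No marker tested was below background on every WT array, which leaves out the markers not tested, such as Alb of liver and Myf5 of satellite cells.

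There were 2 slides, of which slide 1 held the mice numbered 1 and 2 in every group and slide 2 those numbered 3 and 4. On both slides the fed WT arrays occupied column 1 and the fasted WT arrays column 2, so array position and the fast cannot be told apart. No spot was saturated. Of the spots, 55.0% to 68.0% were well above background in the fed WT mice and from 45.1% (mouse 3) to 75.2% (mouse 4) in the fasted ones. Fasted mice 1 and 3 lay in array row 1 of their slides. There 2.07% and 1.18% of spots were marked as outliers, against 0.280% and 0.165% for fasted mice 2 and 4 in row 2. Fasted mice 1 and 3 were also the lowest for Apln, Aplnr, Col2a1, Col3a1, Tfrc and Nmrk2, described further on. Whether the place on the array had a part in this was not tested. As a check of the labels, the Foxo1 probe read 2.43 to 2.86 in fed WT and 0.42 to 1.40 in fed mFoxO-TKO muscle, and Foxo4 read -2.43 to -2.29 and -6.79 to -5.76. The Foxo3 probe read -4.69 to -4.15 and -3.91 to -3.42, so it did not separate the genotypes in that direction, and whether it lies in the deleted part was not examined.

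After the fast 5302 of 21273 genes passed, which is 24.9% of those tested. Of these, 2674 rose (12.6% of those tested) and 2628 fell (12.4%). The counts and shares given for gene lists further on are to be read beside these 2 shares. The split depended on the scaling: genes that rose were 50.4% of those that passed here, 36.2% of 6328 when arrays were scaled on the probes that every array detected, 58.3% of 3406 after normexp background correction (which adds an offset of 50), and 40.4% of 4927 in the authors' value table. The first of these scalings moved the median change of all genes from -0.020 to -0.12. Within slide 1 alone 1366 genes passed, and within slide 2 alone 4309. Most changes were small. At least 2-fold were 835 rises and 1026 falls, at least 4-fold 172 and 193, and at least 8-fold 42 and 31. Without regard to any test, the 4 fasted levels lay wholly above the 4 fed levels for 3140 genes (14.8%) and wholly below for 3048 (14.3%).

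The largest rise among genes with a symbol was that of Doc2b, which encodes a calcium sensor of vesicle fusion that serves insulin-driven glucose transport. Doc2b stood at -5.10, -3.90, -3.76 and -4.34 in the fed mice and 2.41, 1.21, 1.33 and 2.05 in the fasted mice. All fasted mice were far above the fed ones, of which 3 of 4 were well above background, and the change was 6.03 ± 0.40, or 65.1-fold (adjusted p = 2.11e-07), with a change of 4.52 after normexp. Depp1, a FoxO target of autophagy and peroxisomes, stood at 1.41, 1.27, 2.30 and 1.36 in the fed mice and 7.38, 6.90, 6.85 and 6.84 in the fasted mice. Its groups did not overlap either, and it rose 42.4-fold (5.41 ± 0.39, adjusted p = 3.95e-07). Acot1, a cytosolic acyl-CoA thioesterase, rose 21.9-fold from -1.0, -0.32, -0.36 and -0.73 to 3.28, 3.23, 4.2 and 4.69 (adjusted p = 0.00112). Its mitochondrial neighbour Acot2, a near-identical copy whose transcripts a probe may share, is given with the fuel genes.

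Maff, a small MAF factor, had levels of -0.13, 0.39, -0.32 and -0.63 in the fed mice and 4.37, 3.41, 3.77 and 3.77 in the fasted mice, a 16.1-fold rise (4.01 ± 0.25, adjusted p = 1.62e-07). Rnf39, whose promoter was shown above, went from -5.0, -3.65, -4.94 and -4.38 in fed mice, 2 of them well above background, to -0.95, -0.87, 0.38 and -0.55 in fasted mice, a change of 4.00 ± 0.50 (adjusted p = 4.72e-05; 2.46 after normexp). Ddit4, which encodes the mTORC1 inhibitor REDD1, was at 4.57, 3.23, 4.92 and 3.67 in the fed mice and 8.28, 8.09, 7.76 and 7.54 in the fasted mice, with every fasted mouse above every fed one and a 14.2-fold rise (adjusted p = 1.46e-05). Il6ra levels were 1.51, 1.26, 1.5 and 1.41 with food and 4.78, 5.24 and 5.53 in the 3 fasted mice that gave a value, a change of 3.76 ± 0.24 (adjusted p = 1.5e-06). S100g, a calcium-binding protein best known from gut, was not well above background in any fed mouse and well above in all fasted ones. It was at least 4.14-fold higher after the fast (adjusted p = 0.00436), with a change of 1.16 after normexp.

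Among the largest falls was Phex, an endopeptidase of phosphate balance, at -2.94, -2.29, -1.87 and -1.77 in fed mice and not well above background in any fasted mouse. It was at least 5.07-fold lower after the fast (adjusted p = 1.7e-06), with a change of -1.63 after normexp. Fam78a stood at 2.63, 2.38, 2.47 and 2.67 in the fed mice and -1.27, -0.91, -1.94 and -2.17 in the fasted mice, groups far apart, and fell 17.3-fold (-4.11 ± 0.25, adjusted p = 1.62e-07), while its dimmer probe fell by 1.36 on the log2 scale (adjusted p = 0.0267) and the mean of both by 2.74. Fam83d, a spindle protein, dropped from -1.18, -1.37, -1.03 and -1.13 to -6.40, -4.94, -3.43 and -5.78, where 1 of 4 fasted mice was well above background (change -3.96 ± 0.66, adjusted p = 0.000468; -2.01 after normexp). Every fasted mouse lay more than 1 log2 unit under the lowest fed mouse for each of these genes.

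Further large falls were those of Lrrc17 (-3.60 ± 0.47, adjusted p = 7.18e-05), a secreted leucine-rich protein, with 2 of 4 fasted mice well above background, and of Ttbk1 (-3.52 ± 0.25, adjusted p = 3.9e-07), a tau kinase, with 1 of 4. After normexp these changes were -2.24 and -1.42, and after quantile normalization Ttbk1 was at -4.21. Ankrd34a fell from -0.020, 0.029, 0.054 and 0.26 to -3.74, -3.25, -3.46 and -3.0 (-3.44 ± 0.26, adjusted p = 5.62e-07; -2.49 after normexp). Cited4, a coactivator partner of CBP that responds to endurance exercise, was at 2.51, 2.72, 3.30 and 3.48 in the fed mice and -0.33, -0.018, -0.53 and -0.58 in the fasted mice and fell 10.3-fold (adjusted p = 1.74e-07). For Ankrd34a and Cited4 all 8 arrays were well above background and no fasted level reached the fed range.

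**Figure D2:**
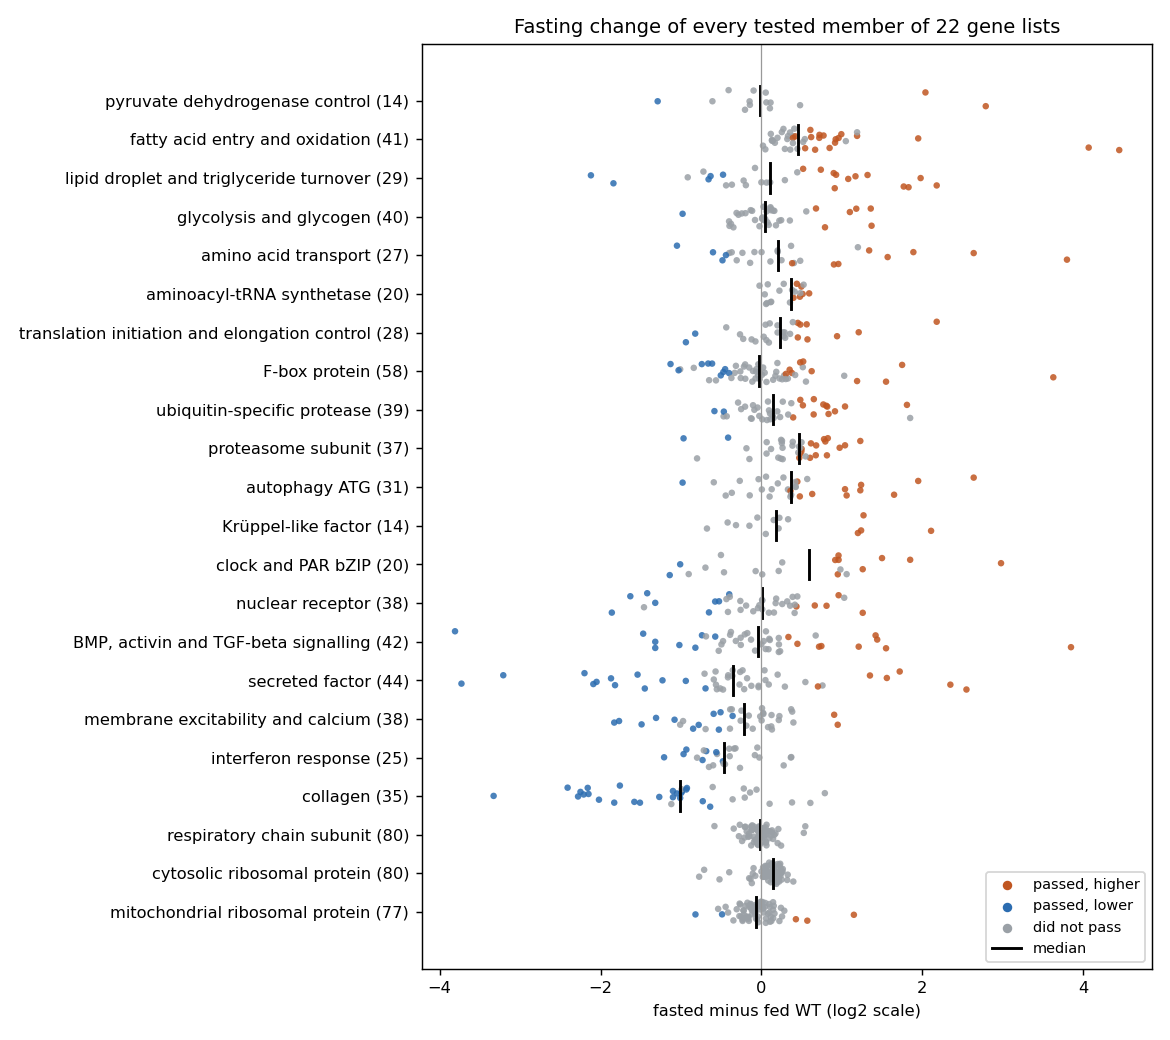
Each dot is the fasted minus fed change (log2 scale) in WT muscle of 1 tested gene of 22 lists or families, with the number tested in parentheses and the list median as a bar. Collagens lie to the left of 0 with a median of -1.01, while the proteasome (0.47) and fatty acid (0.45) lists lie to the right and respiratory chain subunits gather at 0.

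Fuel choice in muscle is set at pyruvate dehydrogenase, which kinases (PDK) switch off and phosphatases (PDP) switch on. Of 14 genes of this switch, 2 rose (14.3%, against 12.6% of all genes tested) and 1 fell (7.14%, against 12.4%), with a list median of -0.021. Pdk4, the kinase that closes the gate in fasting, stood at 4.90, 6.81, 6.5 and 5.61 in the fed mice and 8.07, 8.11, 7.86 and 7.95 in the fasted mice. The fasted mice were tightly grouped above all fed mice, which spread over nearly 2 log2 units, and Pdk4 rose 4.12-fold (2.04 ± 0.31, adjusted p = 0.000262). The phosphatases moved in opposite directions. Pdp2 went from -0.83, -0.47, -0.17 and -0.57 to 2.59, 2.37, 1.92 and 2.24, a 6.92-fold rise (adjusted p = 9.92e-06), and Pdp1, the main phosphatase of muscle, went from 3.72, 3.45, 3.72 and 3.74 to 2.90, 2.66, 2.07 and 1.85, a 2.44-fold fall (-1.29 ± 0.21, adjusted p = 0.000345). Pdp1 fell by 0.80 on slide 1 and by 1.77 on slide 2. Its other probes gave -1.20 ± 0.17 and -1.15 ± 0.50, of which the latter did not pass (adjusted p = 0.120).

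Of 15 genes of ketone body use and monocarboxylate transport, 2 rose and 2 fell (13.3% each, against 12.6% and 12.4% of all genes tested). Oxct1, the enzyme by which muscle takes up ketone bodies into energy metabolism, was chosen after its values were seen. Its levels of 6.82, 6.64, 6.57 and 6.40 in the fed mice and 6.48, 6.89, 6.27 and 6.38 in the fasted mice overlapped, with a change of -0.10 ± 0.16 (adjusted p = 0.708).

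Triglyceride is stored in droplets coated by perilipins and is opened by the lipase ATGL. Of 29 droplet genes tested, out of 30 listed, 12 rose (41.4%) and 5 fell (17.2%), against 12.6% and 12.4% of all genes tested. The 5 falls became 3 when any of fed mice 1 to 4, fasted mice 1 and 3, fed mFoxO-TKO mice 2 and 4 or fasted mFoxO-TKO mouse 2 was left out. Plin5, which ties droplets to mitochondria, was at 4.36, 4.52, 4.58 and 4.03 in the fed mice and 6.53, 6.75, 6.36 and 6.59 in the fasted mice. It rose 4.54-fold with no overlap between the groups (2.18 ± 0.22, adjusted p = 8.99e-06). Plin4 rose 3.42-fold (1.77 ± 0.19, adjusted p = 1.21e-05). Gpat3, which starts glycerolipid synthesis, went from 1.18, 1.24, 0.91 and 0.96 to 2.91, 4.02, 2.42 and 2.86 (adjusted p = 6.01e-05), with fasted mouse 2 the highest. Lpin1, a phosphatidate phosphatase and coactivator, rose 2.49-fold by its brighter probe (adjusted p = 2.04e-05), while its other probe gave 0.71 ± 0.36 (adjusted p = 0.182).

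The lipase ATGL is encoded by Pnpla2, chosen after its values were seen, and is blocked by the product of G0s2. Pnpla2 stood at 5.44, 5.44, 5.64 and 5.31 in the fed mice and 6.55, 6.33, 6.54 and 6.71 in the fasted mice and rose 2.11-fold (1.08 ± 0.14, adjusted p = 6.24e-05). G0s2 stood at 2.93, 0.98, 1.36 and 1.90 in the fed mice and -0.56, -0.27, -0.33 and -0.16 in the fasted mice. Its fasted levels gathered just under 0 and below every fed mouse, a 4.35-fold fall (-2.12 ± 0.37, adjusted p = 0.000724). Pnpla3, a lipase relative that insulin and feeding raise in liver, fell as well, from 0.58, -0.34, -0.45 and 0.52 to -1.71, -1.66, -2.22 and -1.46 (-1.84 ± 0.37, adjusted p = 0.00189). Dgat1, which makes triglyceride, had overlapping groups and a change of 0.11 ± 0.12 (adjusted p = 0.595).

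All 41 listed genes of fatty acid entry and oxidation were tested, of which 18 rose (43.9%) and 0 fell, and 0 fell in any fit that left out 1 array. The list median was 0.45 against -0.020 over all genes tested, 0.53 within slide 1 and 0.47 within slide 2. Even the lowest change of the list was 0.020. Acot2, which frees fatty acids from coenzyme A inside mitochondria, was at -0.92, -0.38, -0.85 and -1.48 in the fed mice and 2.51, 3.20, 3.26 and 3.68 in the fasted mice, a 16.8-fold rise with groups far apart (4.07 ± 0.27, adjusted p = 1.82e-07). Ucp3, the uncoupling protein of muscle, rose 3.85-fold, from 1.32, 2.09, 2.21 and 1.39 to 3.85, 4.09, 3.49 and 3.36 (adjusted p = 1.91e-05). Eci2, an isomerase needed for unsaturated fatty acids, rose 1.99-fold (0.99 ± 0.10, adjusted p = 1.1e-05), and Fabp3, the fatty acid carrier of the cytosol, did not pass at 0.17 ± 0.095 (adjusted p = 0.232) although its 4 fasted levels lay above the fed ones.

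**Figure D3:**
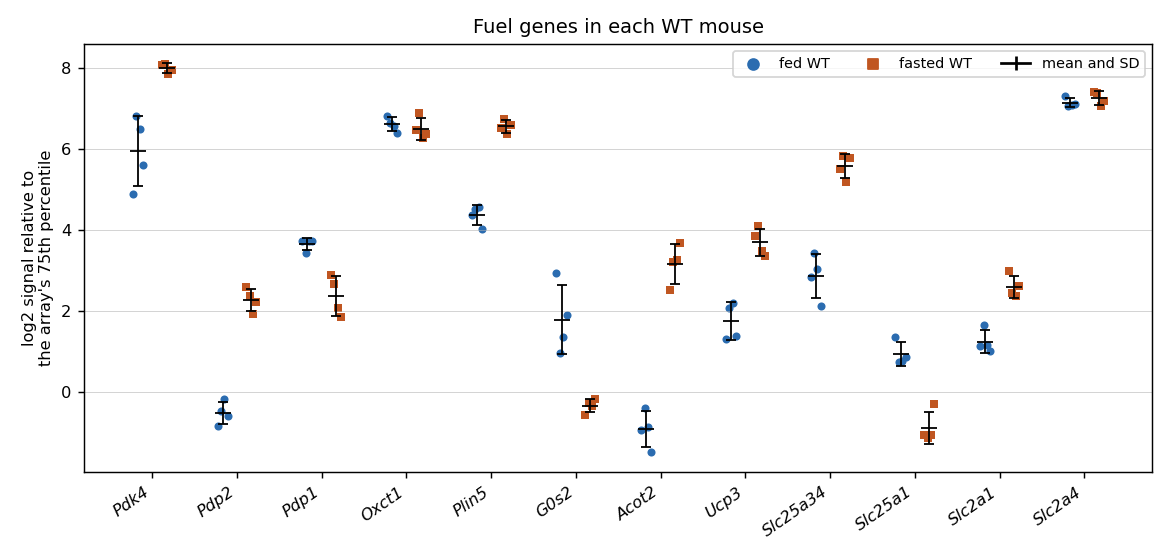
Points are the levels (log2 signal relative to the array's 75th percentile) of 12 fuel genes in each of the 4 fed and 4 fasted WT mice, with group means and SD. Fasted mice sit above fed mice for Pdk4, Pdp2, Plin5, Acot2, Ucp3, Slc25a34 and Slc2a1, below them for Pdp1, G0s2 and Slc25a1, and overlap them for Oxct1 and Slc2a4.

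The Slc25 family carries metabolites across the inner mitochondrial membrane. Of 39 members tested, out of 47, 11 rose (28.2%) and 6 fell (15.4%), and the median was -0.20. The largest rise was that of Slc25a34, a carrier of unsettled substrate, from 2.84, 3.45, 3.05 and 2.13 to 5.51, 5.82, 5.18 and 5.79 (6.54-fold, adjusted p = 5.87e-06). Slc25a20, which brings acylcarnitines to the matrix for oxidation, rose 1.90-fold (0.92 ± 0.11, adjusted p = 2.6e-05). Slc25a1, which exports citrate for fat synthesis in the cytosol, stood at 1.37, 0.76, 0.77 and 0.86 in the fed mice and -1.05, -1.13, -1.05 and -0.28 in the fasted mice, with every fasted mouse below 0 and every fed mouse above it. It fell 3.53-fold (-1.82 ± 0.22, adjusted p = 3.82e-05). Slc25a33, a pyrimidine nucleotide carrier, rose 3.46-fold to 5.79, 4.40, 4.28 and 4.25, highest in fasted mouse 1 (adjusted p = 0.000243).

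Glucose enters muscle through carriers of the Slc2 family. Of 11 members of Slc2 and Slc5 tested, out of 23, 3 rose (27.3%) and 1 fell (9.09%, 2 falls without fasted mFoxO-TKO mouse 1). Slc2a4, the insulin-responsive GLUT4, was at 7.31, 7.05, 7.09 and 7.12 in the fed mice and 7.41, 7.38, 7.05 and 7.17 in the fasted mice, with overlapping groups and a change of 0.11 ± 0.14 (adjusted p = 0.621). Slc2a1, the basal carrier GLUT1, was at 1.14, 1.67, 1.16 and 1.03 in the fed mice and 2.99, 2.44, 2.38 and 2.62 in the fasted mice and rose 2.56-fold without overlap (1.36 ± 0.19, adjusted p = 0.000145). Slc2a3 rose 2.58-fold (1.37 ± 0.32, adjusted p = 0.00578). The fructose carrier Slc2a5 fell from -2.02, -2.76, -3.08 and -2.45 to -4.59, -6.63, -5.44 and -4.07, where only 1 of 4 fasted mice was well above background (-2.61 ± 0.43, adjusted p = 0.000422; -1.17 after normexp).

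Of 40 genes of glycolysis and glycogen, 6 rose (15%, against 12.6% of all genes tested). Of the same genes 1 fell (2.50%, against 12.4%), with 2 falls without fed mouse 1 or fasted mouse 2. With arrays scaled on the probes that every array detected 6 rose and 5 fell. Pfkfb3, which makes the activator of phosphofructokinase, was at 4.61, 5.11, 5.55 and 4.97 in the fed mice and 6.22, 5.82, 6.40 and 6.20 in the fasted mice and rose 2.15-fold (1.1 ± 0.18, adjusted p = 0.000418). Fbp2, the fructose bisphosphatase of muscle that runs the opposite reaction, was at 2.04, 1.83, 1.88 and 2.0 in the fed mice and 2.71, 3.24, 3.20 and 3.32 in the fasted mice and rose 2.26-fold (1.18 ± 0.21, adjusted p = 0.000832). For both genes every fasted mouse lay above every fed mouse. Stbd1, which tethers glycogen to membranes and delivers it to lysosomes, fell from 5.04, 4.80, 4.65 and 4.94 to 3.78, 4.2, 3.75 and 3.78 (-0.98 ± 0.23, adjusted p = 0.00501).

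Amino acids leave or enter muscle through solute carriers. Of 27 amino acid carriers tested, out of 30, 8 rose (29.6%) and 4 fell (14.8%). The falls were 2 without fed mouse 1, fed mouse 2 or fasted mouse 3 and 1 without fasted mouse 1. Slc43a1, known as LAT3 and shown with its E-box above, stood at 1.18, 1.75, 1.86 and 1.31 in the fed mice and 5.77, 5.20, 5.41 and 4.93 in the fasted mice. It was the carrier with the largest rise, 14-fold, and its groups were more than 3 log2 units apart (3.80 ± 0.25, adjusted p = 1.82e-07). Slc7a8 (LAT2) went from -2.01, -1.28, -1.34 and -1.80 to 1.85, 1.32, 0.40 and 0.56 (6.22-fold, adjusted p = 0.000958), with a change of 3.22 on slide 1 and 2.05 on slide 2. Slc7a6, which exchanges arginine for neutral amino acids, rose 2.96-fold (1.57 ± 0.18, adjusted p = 1.94e-05), and Slc7a2, a carrier of cationic amino acids, rose 3.70-fold with n = 3 fasted mice (1.89 ± 0.20, adjusted p = 1.91e-05).

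Of the 20 cytosolic aminoacyl-tRNA synthetases and related genes of the list, which charge tRNA with amino acids, 6 rose (30%) and 0 fell. The list median was 0.37. Changes were small: Iars went from 4.36, 4.38, 4.10 and 4.17 to 4.92, 4.87, 4.83 and 4.76 (1.51-fold, adjusted p = 0.000442), and Wars overlapped, with a change of -0.023 ± 0.11 (adjusted p = 0.916). Of 28 genes that control translation initiation and elongation, 8 rose (28.6%) and 2 fell (7.14%). Eif4ebp1, which binds and blocks the cap-binding protein eIF4E when mTORC1 is off, stood at 5.15, 4.99, 5.01 and 4.92 in fed mice and at 7.52, 6.63 and 7.44 in the 3 fasted mice with a value. It rose 4.53-fold (2.18 ± 0.28, adjusted p = 7.32e-05). Its relative Eif4ebp3 rose 1.92-fold (adjusted p = 0.000110), and Eif4ebp2 did not pass (0.052 ± 0.10, adjusted p = 0.779). Eif4e itself fell from 3.86, 3.52, 3.28 and 3.53 to 2.63, 3.06, 2.28 and 2.46 (-0.94 ± 0.19, adjusted p = 0.00219). Eif2ak4, the kinase GCN2 that senses uncharged tRNA, rose from -0.081, 0.27, 0.052 and 0.24 to 2.19, 1.01, 1.14 and 0.96 (1.21 ± 0.21, adjusted p = 0.000782), with fasted mouse 1 highest.

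Proteins are marked for the proteasome by ubiquitin ligases, of which the F-box, TRIM, Asb and Kelch-like families supply many substrate adaptors. Among all genes tested 12.6% rose and 12.4% fell. Of 58 F-box genes tested, out of 78, 10 rose (17.2%) and 9 fell (15.5%, 5 falls without fed mouse 1 or 2). Of 33 tripartite motif genes, out of 57, 5 rose (15.2%) and 7 fell (21.2%). Of 15 Asb genes, out of 18, 3 rose and 3 fell (20% each). Of 39 Kelch-like and Kbtbd genes, out of 46, 7 rose (17.9%) and 9 fell (23.1%). The medians of the 4 families were -0.032, -0.033, -0.20 and -0.026.

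Fbxo32, which encodes atrogin-1, stood at 2.41, 4.15, 3.26 and 2.67 in the fed mice and 6.70, 6.68, 6.79 and 6.80 in the fasted mice. The fasted mice were closer to each other than the fed mice were, and above all of them, a 12.3-fold rise (3.63 ± 0.30, adjusted p = 1.72e-06). Trim63, whose promoter holds a FoxO heptamer beside a glucocorticoid core, stood at 6.06, 6.55, 6.25 and 5.92 in the fed mice and 8.57, 8.25, 8.29 and 8.04 in the fasted mice. It rose 4.27-fold by its brightest probe (2.09 ± 0.30, adjusted p = 0.000154) and by 3.39 ± 0.24 by its other probe (adjusted p = 3.36e-07), or 2.74 by their mean. Fbxo30, known as MUSA1, went from 0.15, 0.39, 0.23 and 0.039 to 2.10, 1.93, 1.75 and 2.04 (3.37-fold, adjusted p = 3.29e-07), and Fbxo31, which targets cyclin D1, rose 2.92-fold (1.55 ± 0.16, adjusted p = 9.48e-06).

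Klhl38 rose 6.62-fold, from 1.03, 2.13, 1.68 and 1.17 to 4.49, 4.25, 4.17 and 4.02 (adjusted p = 2.39e-06), and Klhl21 rose 2.30-fold (1.20 ± 0.13, adjusted p = 1.13e-05). The muscle adaptor Asb11 rose 2.92-fold (1.55 ± 0.37, adjusted p = 0.00678), whereas Asb2, which controls muscle mass through filamins, overlapped (-0.12 ± 0.14, adjusted p = 0.590). Other members fell. Trim7, which binds the glycogen primer glycogenin, fell from 0.10, 0.0031, 0.47 and 0.26 to -1.59, -1.13, -2.14 and -2.05 (3.82-fold, adjusted p = 1.08e-05). Kbtbd13, mutated in nemaline myopathy, fell 2.52-fold (-1.33 ± 0.15, adjusted p = 2.17e-05), and Fbxo17 fell 2.05-fold at its brightest probe (-1.03 ± 0.23, adjusted p = 0.00455), its other probe giving -0.60 ± 0.29 (adjusted p = 0.154).

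The proteasome itself, which digests the marked proteins, moved mostly upwards. Of 37 proteasome subunits tested, out of 39, 15 rose (40.5%) and 2 fell, with a median of 0.47, and the medians within the slides were 0.43 and 0.41. Psmd11, a lid subunit that promotes assembly, went from 3.31, 3.26, 3.42 and 3.23 to 4.59, 4.5, 4.3 and 4.77 (2.35-fold, adjusted p = 3.7e-06). The 2 that fell, Psmb9 and Psmb10, are catalytic subunits of the immunoproteasome, the form that interferon induces. Psmb9 fell from -0.35, -0.43, 0.30 and -0.69 to -1.69, -1.18, -1.21 and -0.97 (-0.97 ± 0.21, adjusted p = 0.00339). Psmb10 had overlapping groups and a change of -0.41 ± 0.13 (adjusted p = 0.0292), and it did not pass without any 1 of fed mice 1, 3 and 4 or fasted mice 1 and 3, which left 1 fall in the family.

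Of 39 ubiquitin-specific proteases tested, out of 50, 12 rose (30.8%) and 2 fell (1 without fed mouse 1, 2 or 4, fasted mouse 3 or fasted mFoxO-TKO mouse 4). Usp14, which trims ubiquitin at the proteasome, rose 1.78-fold (0.84 ± 0.12, adjusted p = 0.000196). Usp54 rose from -3.54, -3.0, -2.81 and -2.64 to -0.29, -1.49, -1.44 and -1.51 (1.81 ± 0.41, adjusted p = 0.00460; 1.16 after normexp). Of 30 E2 conjugating enzymes 3 rose and 3 fell (10% each, against 12.6% and 12.4% of all genes tested), with a median of 0.12.

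Autophagy wraps cytoplasm in membranes that fuse with lysosomes. Of 31 core genes tested, out of 33, 11 rose (35.5%) and 1 fell (2 without fed mFoxO-TKO mouse 1 and 3 without fasted mouse 2), with a median of 0.36. Ulk1, the kinase that starts the process and that mTORC1 restrains, stood at 5.11, 5.59, 5.17 and 5.08 in the fed mice and 7.31, 7.25, 7.13 and 7.04 in the fasted mice, with fasted levels nearly 2 log2 units above fed ones and a 3.86-fold rise (1.95 ± 0.12, adjusted p = 1.62e-07). Its partner Atg13 rose 2.36-fold (1.24 ± 0.14, adjusted p = 1.49e-05). Gabarapl1, which coats the growing membrane, stood at 5.59, 5.94, 5.41 and 5.15 in the fed mice and 8.46, 8.16, 7.94 and 8.07 in the fasted mice and rose 6.22-fold, the largest rise of the family (2.64 ± 0.17, adjusted p = 3.29e-07). Sqstm1, the cargo receptor p62, rose 2.35-fold (1.24 ± 0.10, adjusted p = 2.07e-06), and Atg5 overlapped (-0.14 ± 0.11, adjusted p = 0.392). Bnip3l, a receptor that hands mitochondria to autophagy, rose 1.86-fold (0.90 ± 0.13, adjusted p = 0.000152).

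Among transcription factors, 6 of 21 forkhead genes tested, out of 44, rose (28.6%) and 3 fell (14.3%). Foxo1 stood at 2.69, 2.86, 2.43 and 2.80 in the fed mice and 5.56, 4.99, 4.73 and 4.70 in the fasted mice. No fasted mouse was near the fed range, and Foxo1 rose 4.93-fold (2.30 ± 0.21, adjusted p = 2.95e-06). The Foxo3 probe rose from -4.19, -4.36, -4.69 and -4.15, where 3 of 4 fed mice were well above background, to -1.69, -2.29, -3.08 and -2.19 (2.04 ± 0.27, adjusted p = 6.83e-05; 0.95 after normexp). As given above, this probe did not read lower in fed mFoxO-TKO than in fed WT muscle. How well it reports Foxo3 was not examined. Foxo6, a member of the same class, moved the other way, from 3.58, 3.40, 3.67 and 3.75 to 1.02, 1.51, 0.60 and 0.78, a 6.16-fold fall (-2.62 ± 0.19, adjusted p = 4.51e-07), with -1.81 ± 0.36 by its other probe. Foxk1, a repressor of autophagy genes in fed cells, rose from -0.31, 0.88, 0.87 and 0.76 to 2.33, 2.36, 2.76 and 2.47 (1.93 ± 0.26, adjusted p = 0.000103), and Foxp1 rose 1.99-fold (1.0 ± 0.21, adjusted p = 0.00311).

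Of 14 Krüppel-like factors tested, out of 17, 4 rose (28.6%) and 0 fell (1 without fasted mouse 4 or fed mFoxO-TKO mouse 3). Klf15 stood at 2.08, 2.62, 1.83 and 1.78 in the fed mice and 4.70, 3.90, 4.22 and 3.92 in the fasted mice and rose 4.32-fold without overlap (2.11 ± 0.25, adjusted p = 2.63e-05). Klf9 stood at 4.72, 4.61, 4.37 and 4.33 in the fed mice and 5.88, 5.96, 5.46 and 5.55 in the fasted mice and rose 2.30-fold (1.20 ± 0.18, adjusted p = 0.000216). Klf10 and Klf6 rose 2.37-fold (adjusted p = 0.000386) and 2.41-fold (adjusted p = 0.000149), while Klf13 overlapped (-0.15 ± 0.14, adjusted p = 0.507). Cebpd, a C/EBP factor of stress and atrophy, stood at 5.0, 4.05, 4.52 and 3.91 in the fed mice and 7.72, 7.49, 7.77 and 7.60 in the fasted mice. Its fasted levels were close together, and it rose 9.68-fold (3.27 ± 0.36, adjusted p = 1.56e-05).

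Of 25 C/EBP and ATF genes 7 rose (4 without fasted mouse 1 or fed mouse 3) and 3 fell. Cebpb rose 3.73-fold, with n = 3 fasted mice (1.90 ± 0.31, adjusted p = 0.000646). Atf3, an early stress gene, rose 3.41-fold (1.77 ± 0.33, adjusted p = 0.00119). Creb3l3, a fasting factor of liver, fell from -4.04, -3.34, -3.36 and -3.06 to -6.46, -6.13, -5.92 and -5.45, where 1 of 4 fasted mice was well above background (-2.54 ± 0.34, adjusted p = 8.3e-05; -0.90 after normexp and -3.24 after quantile normalization).

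Nuclear receptors went in both directions, 5 rising (13.2%) and 8 falling (21.1%) of 38 tested, out of 48. Among all genes tested these shares were 12.6% and 12.4%. Ppard, the PPAR of muscle fat oxidation, rose 1.75-fold, from 2.60, 2.59, 2.17 and 2.35 to 3.65, 3.20, 2.97 and 3.13 (adjusted p = 0.00262). Rarb, a retinoic acid receptor, fell 3.64-fold, from 1.90, 2.07, 1.12 and 1.43 to 0.076, 0.24, -0.82 and -0.42 (adjusted p = 0.000107). Rxrg, a retinoid X receptor enriched in muscle, stood at 5.37, 5.12, 4.93 and 5.12 in the fed mice and 3.71, 4.22, 3.83 and 3.50 in the fasted mice and fell 2.50-fold with no overlap (-1.32 ± 0.16, adjusted p = 2.87e-05). The oestrogen receptor Esr1 fell 2.67-fold by its brightest probe (-1.42 ± 0.26, adjusted p = 0.00106), and its other probes gave -0.99, -1.71 and -2.05, of which the second did not pass (adjusted p = 0.261).

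Clock genes and the PAR bZIP factors they drive had 8 rises (40.0%) and 2 falls (1 without fed mouse 1 or 4 or fasted mouse 1 or 2) among 20 tested. The median change was 0.59, 0.72 within slide 1 and 0.50 within slide 2. The hour at which muscles were taken is not given in the sources used here. Per1, a period repressor with a glucocorticoid response element, stood at 3.48, 3.41, 4.18 and 4.09 in the fed mice and 5.91, 5.38, 4.87 and 5.01 in the fasted mice and rose 2.83-fold (1.5 ± 0.32, adjusted p = 0.00277), by 2.20 on slide 1 and 0.81 on slide 2. Cry2 stood at 4.09, 4.18, 3.49 and 3.73 in the fed mice and 6.12, 5.58, 5.57 and 5.64 in the fasted mice and rose 3.62-fold (1.85 ± 0.23, adjusted p = 6.57e-05). Ciart went from -5.66, -7.14, -5.17 and -5.57, where 1 of 4 fed mice was well above background, to -1.80, -3.84, -2.83 and -3.17 (2.98 ± 0.48, adjusted p = 0.000384), and after normexp background correction its change was 1.0 (adjusted p = 0.0960). Hlf, a PAR bZIP factor, fell from 0.25, 0.21 and -0.073 in 3 fed mice to -1.5, -0.25, -1.1 and -1.21 (-1.14 ± 0.30, adjusted p = 0.0129).

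**Figure D4:**
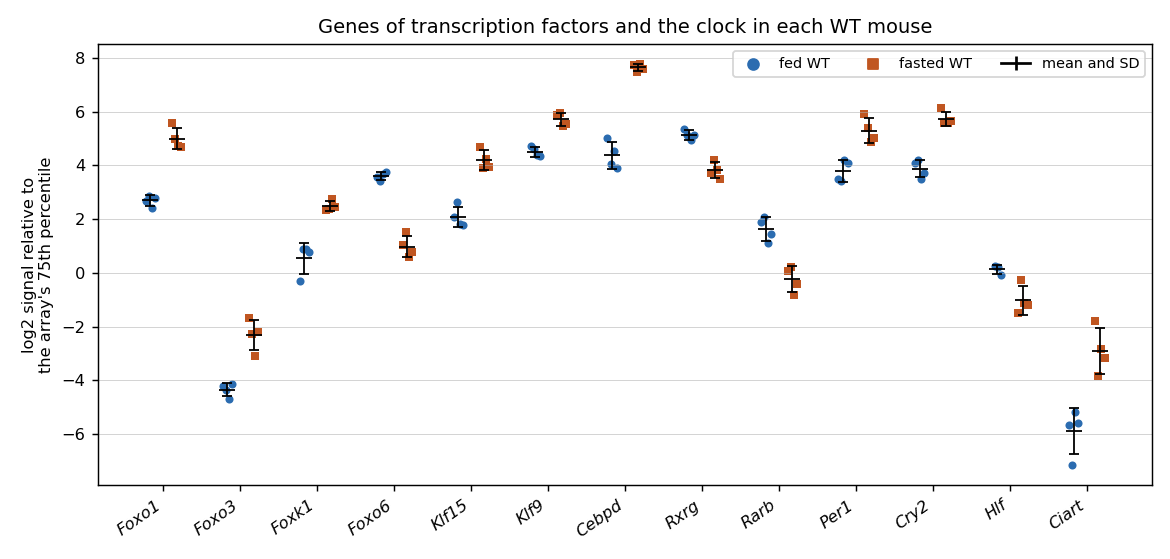
Points are the levels (log2 signal relative to the array's 75th percentile) of 13 genes of transcription factors and the clock in each fed and fasted WT mouse, with group means and SD. Fasted mice lie above fed mice for Foxo1, Foxo3, Foxk1, Klf15, Klf9, Cebpd, Per1, Cry2 and Ciart and below them for Foxo6, Rxrg, Rarb and Hlf. The Foxo3 probe did not read lower in fed mFoxO-TKO than in fed WT muscle.

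Signals from growth factors are damped by feedback inhibitors. Of 29 such genes tested, out of 33, 7 rose and 7 fell (24.1% each, against 12.6% and 12.4% of all genes tested). Dusp4, a nuclear phosphatase of MAP kinases, rose from -4.93, -3.71, -3.50 and -3.53, with 3 of 4 fed mice well above background, to -0.86, -2.52, -0.40 and 0.12 (3.0 ± 0.54, adjusted p = 0.000934; 1.83 after normexp). Dusp10 fell from 0.87, 0.56, 1.06 and 1.24 to -1.35, -0.22, -1.1 and -0.70 (3.42-fold, adjusted p = 5.92e-05), and Dusp6, the ERK phosphatase, fell 1.82-fold (-0.86 ± 0.18, adjusted p = 0.00227). Trib3, a pseudokinase that binds AKT, stood at -0.41, 0.25, -0.97 and -0.66 in the fed mice and 1.63, 1.40, 2.32 and 1.69 in the fasted mice and rose 4.62-fold with no overlap (2.21 ± 0.29, adjusted p = 6.64e-05). Errfi1, an inhibitor of the EGF receptor, rose 3.16-fold (1.66 ± 0.31, adjusted p = 0.00140), and the early gene Ier3 rose 3.74-fold (1.90 ± 0.21, adjusted p = 1.42e-05).

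Adrenaline acts in muscle through cAMP, which phosphodiesterases break down. Of 27 genes of this route tested, out of 31, 10 rose (37.0%) and 4 fell (2 without fed mouse 1 or 4 or fasted mouse 1, 1 without fasted mouse 2). Sik1, a kinase that cAMP induces, stood at 0.57, 0.61, 0.36 and 0.45 in the fed mice and 2.77, 2.12, 2.28 and 2.74 in the fasted mice, with the groups apart by more than 1 log2 unit and a rise of 3.95-fold (1.98 ± 0.55, adjusted p = 0.0156). Of 19 phosphodiesterases, out of 24, 6 rose (31.6%) and 3 fell (15.8%). Pde7a rose 2.87-fold (1.52 ± 0.29, adjusted p = 0.00123) and Pde4d 1.92-fold (0.94 ± 0.14, adjusted p = 0.000257).

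The BMP, activin and TGF-beta pathway, which sets muscle mass, had 9 rises (21.4%) and 8 falls (19.0%, 5 falls without fed mouse 1) among 42 genes tested, out of 45. Among ligands, Inhba fell from -0.97, -0.35, -1.03 and -0.93 to -2.23, -2.33, -2.60 and -2.03 (-1.48 ± 0.31, adjusted p = 0.00269) and Inhbb rose from -0.79, -1.09, -1.28 and -1.75 to 0.40, 0.20, -0.19 and 0.34 (1.42 ± 0.20, adjusted p = 0.000134). These encode activin beta chains, and their groups did not overlap. A further chain, Inhbe, did not pass (0.22 ± 0.20, adjusted p = 0.505). Acvr1b, the type I activin receptor, rose 2.71-fold (1.44 ± 0.20, adjusted p = 0.000104). Smad3, the signal carrier of activin and myostatin, stood at 5.09, 5.15, 4.85 and 5.01 in the fed mice and 3.34, 3.91, 4.02 and 3.57 in the fasted mice and fell 2.49-fold with every fasted mouse below every fed one (-1.32 ± 0.14, adjusted p = 1.53e-05).

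Of 44 secreted factors tested, out of 51, 6 rose (13.6%) and 12 fell (27.3%), with a median of -0.36. Igf1, the local growth factor of muscle, stood at 1.99, 1.99, 1.43 and 1.91 in the fed mice and -0.13, 0.15, -0.65 and -0.23 in the fasted mice. All fasted mice were more than 1 log2 unit below the lowest fed mouse, a 4.13-fold fall by the brightest probe (-2.05 ± 0.25, adjusted p = 3.82e-05), its other 3 probes fell by 0.81 to 1.18, and the mean of all probes fell by 1.28. Angptl2 fell 9.26-fold, from 0.089, -0.41, 0.23 and 0.085 to -3.40, -2.62, -3.75 and -3.08, with 3 of 4 fasted mice well above background (change -3.21, adjusted p = 5.06e-07; -2.29 after normexp). Ptx3, a pentraxin of innate immunity, fell from -0.33, -0.76, 0.33 and 0.26 to -3.61, -3.01, -5.22 and -2.92, again with 3 of 4 (-3.56 ± 0.42, adjusted p = 2.62e-05; -1.98 after normexp). Vegfd, a growth factor of lymph vessels, rose 5.84-fold, from 0.94, 0.72, 0.77 and 0.76 to 3.70, 3.06, 3.13 and 3.47 (adjusted p = 1.62e-07), and the neurotrophin Bdnf rose 2.95-fold (1.56 ± 0.29, adjusted p = 0.00108; 0.95 after normexp).

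Both apelin, a peptide that acts on vessels and muscle, and its receptor fell. Apln went from -1.61, -1.39, -0.13 and -0.40 to -6.28, -3.56, -5.25 and -3.34 (-3.73 ± 0.57, adjusted p = 0.000268; -1.98 after normexp) and Aplnr from -1.30, 0.091, -0.11 and -0.58 to -5.80, -3.75, -4.34 and -2.61 (-3.65 ± 0.66, adjusted p = 0.000917; -2.29 after normexp). In both, fasted mice 1 and 3 were the lowest and only 2 of 4 fasted mice were well above background. As given above, the arrays of fasted mice 1 and 3 lay in row 1 and had more outlier-marked spots than those of fasted mice 2 and 4. The receptor is known from endothelial cells. Of 34 genes of endothelial growth and apelin 3 rose and 6 fell (17.6%), with a median of -0.25, and of the 11 endothelial markers 0 rose and 1 fell (0 without fasted mouse 1, 2 or 3 or fed mouse 2 or 3). In whole tissue, fewer cells of a type and less RNA per cell cannot be told apart.

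Collagens, the fibres of the matrix that fibroblasts make, had the largest share of falls among the lists examined. Of 35 tested, out of 44, 23 fell (65.7%, against 12.4% of all genes tested) and 0 rose. The median was -1.01, -0.80 within slide 1 and -1.33 within slide 2. Leaving out any 1 array left 16 to 23 falls, 15 to 25 fell under the other scalings and in the authors' table, and 2 fell within slide 1 alone and 15 within slide 2 alone. Col6a3, a chain of the microfibrils around muscle fibres, stood at 3.65, 4.11, 4.17 and 3.93 in the fed mice and 1.23, 2.21, 1.54 and 1.74 in the fasted mice and fell 4.87-fold without overlap (-2.28 ± 0.35, adjusted p = 0.000273). Col3a1 fell from 5.88, 6.04 and 6.06 in 3 fed mice to 3.66, 5.13, 2.56 and 4.56, with fasted mouse 3 lowest (-2.02 ± 0.49, adjusted p = 0.00859). Col2a1, a collagen of cartilage, fell from -3.02, -1.68, -0.92 and -0.23 to -6.20, -3.97, -5.68 and -3.33, where 2 of 4 fasted mice were well above background (-3.33 ± 0.84, adjusted p = 0.00910; -1.66 after normexp).

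Markers of fibroblasts were mixed. Of 10, 5 fell (3 without fasted mouse 1 or 3) and 0 rose, with a median of -0.45. Lum, a keratan sulphate proteoglycan that orders collagen fibrils, stood at 4.46, 4.52, 4.3 and 4.10 in the fed mice and 0.79, 2.49, 1.88 and 1.72 in the fasted mice and fell 6.18-fold (-2.63 ± 0.37, adjusted p = 0.000120). Dcn, the fibroblast proteoglycan decorin, stood at 8.18, 8.03, 7.62 and 7.57 in the fed mice and 8.07, 8.14, 7.68 and 7.70 in the fasted mice, with overlapping groups and a change of 0.050 ± 0.16 (adjusted p = 0.872). Mfap5, a microfibril protein of the same cells, also overlapped (0.15 ± 0.17, adjusted p = 0.576). Over the 32 collagens with a value on all 8 arrays the summed signal was 266 to 405 in the fed and 116 to 226 in the fasted mice, and the mean level -0.20 to 0.36 and -1.26 to -0.64. For the 8 fibroblast markers the summed signal overlapped, as given above, while their mean level was 4.34 to 4.79 in the fed and 3.73 to 4.26 in the fasted mice and did not overlap. What part a change in the number of fibroblasts had in the collagen values was not tested.

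Of 8 macrophage markers 1 rose and 1 fell (2 without fed mouse 4 or fasted mFoxO-TKO mouse 1 or 2), with a median of -0.56. Mrc1, a receptor of resident macrophages, fell from 1.33, 1.25, 1.45 and 1.1 to 0.017, 0.34, -0.011 and 0.073 (-1.18 ± 0.22, adjusted p = 0.00120) and Itgam, an integrin of myeloid cells, rose by 0.45 (adjusted p = 0.00859), while the summed macrophage signal overlapped between the groups. Of 6 satellite cell markers 1 rose and 1 fell, with a median of -0.30. Sdc4, a syndecan, rose 2.44-fold (1.28 ± 0.20, adjusted p = 0.000322). Pax7, the defining factor of these cells, fell by 0.93 (adjusted p = 0.0426). No satellite cell marker fell without any 1 of fed mice 1 to 4, fasted mice 1 and 3, fed mFoxO-TKO mice 1, 3 and 4 or fasted mFoxO-TKO mice 2 and 4, and 2 fell without fasted mouse 2 or fasted mFoxO-TKO mouse 3. Of 25 interferon response genes, 0 rose and 7 fell (28.0%), with a median of -0.47 on both slides together, -0.48 within slide 1 and -0.47 within slide 2. The falls were 4 without fed mouse 3 or fasted mouse 3, 4 after normexp background correction and 13 with arrays scaled on the probes that every array detected. A single gene of the list rose when fed mouse 1, fasted mouse 3 or fasted mFoxO-TKO mouse 1 was left out. The guanylate-binding proteins Gbp3 and Gbp2 fell 2.31-fold (-1.21 ± 0.29, adjusted p = 0.00592) and 1.66-fold (-0.73 ± 0.19, adjusted p = 0.0105). Gbp2 levels were 0.89, 0.96, 1.02 and 0.29 in the fed mice and -0.30, 0.21, 0.061 and 0.26 in the fasted mice, close together but not overlapping. Fed mouse 4 was the lowest fed mouse.

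Genes of the contractile apparatus moved little. Of 14 fast-fibre genes 1 rose and 1 fell (7.14% each), and of 14 slow-fibre genes 2 rose (14.3%, 1 without fed mouse 2) and 0 fell. The fast myosins Myh4 and Myh2, the main motor proteins of quadriceps, changed by -0.051 ± 0.096 (adjusted p = 0.769) and 0.012 ± 0.12 (adjusted p = 0.963) and overlapped in level. Mylk2, the kinase of myosin light chains in fast fibres, stood at 7.43, 7.30, 7.17 and 7.10 in the fed mice and 8.24, 8.13, 7.79 and 7.92 in the fasted mice and rose 1.71-fold (0.77 ± 0.12, adjusted p = 0.000309). Csrp3, a Z-disc stretch sensor of slow fibres and heart, stood at 3.12, 3.68, 4.55 and 2.74 in the fed mice and 6.25, 6.11, 5.49 and 6.02 in the fasted mice and rose 5.44-fold without overlap (2.44 ± 0.38, adjusted p = 0.000312). Casq1, the calcium store of fast fibres, fell from 6.10, 5.84, 6.45 and 6.46 to 5.21, 5.67, 4.96 and 5.58 (-0.85 ± 0.18, adjusted p = 0.00302), by 0.53 on slide 1 and 1.18 on slide 2.

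Excitation and calcium handling leaned to lower values. Of 38 genes tested, out of 40, 11 fell (28.9%) and 2 rose (1 without fed mouse 1 or fasted mouse 1, 4 without fasted mouse 3), and the median was -0.22. Jph2, which holds the tubule membrane next to the calcium store, stood at 2.57, 2.25, 2.54 and 2.49 in the fed mice and 0.67, 1.39, 0.63 and 0.083 in the fasted mice and fell 3.41-fold (-1.77 ± 0.20, adjusted p = 1.99e-05). Sypl2 (mitsugumin 29), a protein of the same junction, went from 3.76, 3.74, 3.76 and 3.95 to 2.49, 2.89, 1.84 and 2.04 (2.80-fold lower, adjusted p = 5.02e-05), and its promoter window holds an E-box. Kcnn2, a calcium-gated potassium channel, fell 3.56-fold (-1.83 ± 0.21, adjusted p = 1.94e-05). Kcnj2, the inward rectifier that holds the resting potential, rose 1.93-fold (0.95 ± 0.22, adjusted p = 0.00542).

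Of 26 genes of the synapse and of denervation, 3 rose and 6 fell (23.1%). They include genes that are not of the neuromuscular junction, among them Gadd45a (2.87, adjusted p = 2.43e-06) and Runx1 (1.81, adjusted p = 0.0184), which rose and are known from denervated muscle, and Hdac9 (-2.39, adjusted p = 0.000145) and Prkag3 (-1.67, adjusted p = 5.13e-06), which fell. Musk, the kinase that gathers acetylcholine receptors, stood at 0.82, 0.19, -0.15 and -0.34 in the fed mice and 3.62, 1.85, 2.75 and 1.99 in the fasted mice and rose 5.37-fold (2.42 ± 0.39, adjusted p = 0.000485). Ache, which ends the signal by splitting acetylcholine, fell from 0.26, 0.24, 0.58 and 0.63 to -0.48, -0.25, -1.23 and -0.89 (-1.14 ± 0.25, adjusted p = 0.00378), by 0.62 on slide 1 and 1.66 on slide 2. In both genes the groups were separate.

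Large families of mitochondria and ribosomes had few calls. None of 80 respiratory chain subunits tested, out of 85, passed in the limma fit (0 rose and 0 fell), and 0 had an unadjusted p under 0.05. Their median change was -0.021, and 2 fell under the scaling on probes that every array detected, after quantile normalization and in the authors' table. Of 80 cytosolic ribosomal protein genes, out of 83, 0 passed in the limma fit (1 fell without fasted mouse 4 or fasted mFoxO-TKO mouse 3), with 2 higher and 1 lower at an unadjusted p under 0.05 and a median of 0.14. Of 77 mitochondrial ribosomal protein genes 3 rose and 2 fell. The falls were 7 without fasted mouse 2 and 4 without fasted mFoxO-TKO mouse 1, and they were 16, 12 and 17 with the scaling on well-detected probes, quantile normalization and the authors' table. Mrpl41 stood apart among them, going from 4.81, 4.94, 4.67 and 4.74 to 6.20, 5.79, 5.74 and 6.01, a 2.21-fold rise (1.15 ± 0.15, adjusted p = 6.39e-05).

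Among 27 genes of purine nucleotides and creatine, 4 rose (14.8%) and 6 fell (22.2%, 3 falls without fed mouse 2 or fasted mouse 3). Among all genes tested these shares were 12.6% and 12.4%. Of the 3 AMP deaminases 1 rose and 2 fell. Ampd3, the form of red cells and wasting muscle, stood at -2.47, -2.13, -2.28 and -2.38 in the fed mice and 0.79, -0.67, -0.67 and -0.17 in the fasted mice and rose 4.39-fold (2.13 ± 0.28, adjusted p = 6.64e-05). Ampd1, the form of muscle fibres, fell from 7.02, 6.83, 7.24 and 6.98 to 6.62, 6.06 and 6.21 in 3 fasted mice (-0.72 ± 0.16, adjusted p = 0.00474), and Ampd2 fell by 0.90 (adjusted p = 0.00029). Xdh, the oxidase that makes uric acid, rose 2.99-fold (1.58 ± 0.27, adjusted p = 0.000648). Of 18 genes of NAD and sirtuins 3 rose and 3 fell (16.7% each). The largest fall was that of Nmrk2, the muscle kinase of nicotinamide riboside, from 5.95, 6.38, 5.63 and 5.91 to 1.82, 4.33, 3.21 and 4.72 (-2.45 ± 0.55, adjusted p = 0.00415), by 3.10 on slide 1 and 1.81 on slide 2.

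Iron and heme genes included importers, stores and a heme oxygenase, with 5 rises (29.4%) and 3 falls (17.6%) among 17. Slc39a14, an importer of iron and zinc, stood at 0.16, 0.24, -0.17 and 0.039 in the fed mice and 4.24, 2.27, 2.46 and 3.26 in the fasted mice and rose 7.94-fold, most in fasted mouse 1 (2.99 ± 0.35, adjusted p = 2.71e-05). Tfrc, the transferrin receptor, stood at 3.41, 3.06, 3.61 and 3.18 in the fed mice and 0.91, 2.29, 1.28 and 2.39 in the fasted mice and fell 3.02-fold, most in fasted mice 1 and 3 (-1.60 ± 0.27, adjusted p = 0.000558). Hmox1, which frees iron from heme, rose 2.69-fold (1.43 ± 0.24, adjusted p = 0.000561). Ftl1, the light chain of the iron store ferritin, rose by 0.52 ± 0.12 at its brightest probe (adjusted p = 0.00462) and by 1.19 at its other probe (adjusted p = 0.000321).

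Of 32 cell cycle genes tested, out of 37, 3 rose (9.38%) and 6 fell (18.8%, 3 falls without fed mouse 1 or fasted mouse 3). Cdkn1a, the cyclin kinase inhibitor p21, stood at 0.76, 1.26, 0.66 and 0.99 in the fed mice and 4.60, 4.48, 3.77 and 4.49 in the fasted mice, with groups more than 2 log2 units apart and a 10.7-fold rise (3.42 ± 0.23, adjusted p = 2.68e-07). Ccnd1, a cyclin that drives entry to the cycle, fell from 0.92, 0.99, 1.47 and 1.04 to -1.34, -0.86, -2.05 and -0.49 (4.88-fold, adjusted p = 0.00123). Aurka, a mitotic kinase, stood at 3.07, 3.84, 3.38 and 3.35 in the fed mice and 0.51, 1.03, 1.06 and 0.61 in the fasted mice and fell 6.09-fold (-2.61 ± 0.22, adjusted p = 2.07e-06). Of 23 genes of mitophagy and the BCL2 family 6 rose and 3 fell. Bcl2l1, whose main product BCL-XL protects cells from apoptosis, went from 3.53, 3.65, 3.15 and 3.81 to 6.14, 4.92, 4.78 and 4.89 (3.14-fold, adjusted p = 0.000268).

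Of 29 chaperones tested, out of 31, 6 rose (20.7%) and 2 fell, Hspb3 and Hspb2 (1 without fed mouse 1, 2 or 4, fasted mouse 1, 3 or 4, fed mFoxO-TKO mouse 2 or 3 or fasted mFoxO-TKO mouse 3 or 4). Dnajb9, a cochaperone of the endoplasmic reticulum, stood at 2.96, 2.92, 2.69 and 2.46 in the fed mice and 4.34, 4.44, 4.37 and 4.46 in the fasted mice and rose 3.13-fold (1.65 ± 0.16, adjusted p = 4.69e-06). Hspb7, a small heat shock protein of muscle, and Hspa1a, the inducible HSP70, rose 3.04-fold (adjusted p = 0.000315) and 2.96-fold (adjusted p = 0.00452), whereas Hspb3, another small heat shock protein of muscle, fell from 3.96, 3.88, 4.17 and 4.19 to 2.17, 3.09, 2.46 and 2.60 (-1.47 ± 0.18, adjusted p = 4.12e-05).

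Of the 435 genes that the naming rule gave, those described were chosen with their values known, mostly from calls that did not hang on 1 array, so the stability of their calls is not a finding. Of 155 described, 142 passed, 90 higher and 52 lower, and all 142 kept their sign in every alternative that gave a value. Psmb10 was the single one to lose its call when 1 array was left out. All 142 passed with slide as a block, and all 127 that had a change on each slide moved the same way on both.

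The last comparison asks which of these responses differed from those of muscle without FoxO1, FoxO3 and FoxO4. The 2 genotypes have their own fed and fasted mice, so the difference of their changes could be tested in the same model. It passed for 468 genes (2.20% of those tested), with 313 more positive in WT (1.47%) and 155 more negative (0.729%). Within these, 308 rose in WT and did so more than in mFoxO-TKO, and 141 fell in WT and did so more. The count moved with the processing, from 6 genes within slide 1 to 897 with slide as a block, and leaving out any 1 array gave 248 to 582, the lowest without fed WT mouse 4. Counts more than 1.5 times below 468 were also found without fed WT mouse 1 (307), fed WT mouse 3 (307), fed mFoxO-TKO mouse 2 (297) or fasted mFoxO-TKO mouse 4 (283). Of the named genes 37 passed, and the 20 that did so without any 1 array are described here. Other alternatives removed some of these calls. Slc7a6, Klhl21 and Ier3 lost theirs after normexp, and Fam78a with the mean of its probes. Klhl21 also lost it without a filter on dim probes and with the percentile taken without outlier-marked spots. Within slide 1 alone 18 of 18 genes did not pass, and within slide 2 alone 18 of 20.

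Large differences lay among the genes with the largest WT rises. Rnf39 changed by 4.00 ± 0.50 in WT and by 0.065 ± 0.50 in mFoxO-TKO muscle, a difference of 3.93 ± 0.70 (adjusted p = 0.00863). Depp1 changed by 5.41 ± 0.39 and 1.66 ± 0.39 (difference 3.75 ± 0.54, adjusted p = 0.00221), Doc2b by 6.03 ± 0.40 and 3.18 ± 0.40 (2.85 ± 0.57, adjusted p = 0.0168) and Slc43a1 by 3.80 ± 0.25 and 0.95 ± 0.25 (2.85 ± 0.35, adjusted p = 0.000846). Maff differed by 2.24 ± 0.35 and Vegfd by 1.90 ± 0.22. In all 6 the WT rise was the larger one, and all except Rnf39 also rose in mFoxO-TKO muscle. The genes were named by their WT changes, which are part of the difference. That choice favours genes with the larger change in WT.

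Of the 170 promoter windows of genes that rose more in WT, 12 (7.06%) held the FoxO heptamer, 29 (17.1%) the E-box, 11 (6.47%) the cAMP response element, 22 (12.9%) the metal response element and 5 (2.94%) the glucocorticoid core, against 2.60%, 9.97%, 3.11%, 13.1% and 4.24% of all windows.

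Genes of protein breakdown that differed were Ulk1 (1.57 ± 0.17, adjusted p = 0.000415), Gabarapl1 (1.64 ± 0.25, adjusted p = 0.00380), Fbxo30 (1.48 ± 0.17, adjusted p = 0.000580) and Klhl21 (0.87 ± 0.18, adjusted p = 0.0209), all with the larger rise in WT. For Trim63 and Fbxo32 the difference did not pass, at 0.25 ± 0.43 (adjusted p = 0.882) and 1.47 ± 0.43 (adjusted p = 0.104). That of Trim63 is from its brightest probe, which rose by 2.09 in WT, against 3.39 for its other probe. The difference by the other probe is not given here. Foxo1 itself differed by 1.65 ± 0.29 (adjusted p = 0.00803), itself 1 of the deleted genes. Fuel and transport genes that differed were Pfkfb3, which rose in WT and fell in mFoxO-TKO muscle by 0.96 (2.06 ± 0.25, adjusted p = 0.000846), Slc2a1 (1.45 ± 0.27, adjusted p = 0.0146) and Slc7a6 (1.33 ± 0.25, adjusted p = 0.0119). Pdk4, Plin5 and Acot2 did not, at 0.046 ± 0.44 (adjusted p = 0.981), -0.23 ± 0.32 (adjusted p = 0.848) and 0.34 ± 0.38 (adjusted p = 0.799).

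Mrpl41 and Ier3 rose more in WT, by 1.12 ± 0.21 and 1.63 ± 0.29. Among genes that fell, the WT fall was the larger for Aurka (-2.01 ± 0.32, adjusted p = 0.00373), Fam78a (-1.99 ± 0.36, adjusted p = 0.00878), Smad3 (-1.48 ± 0.20, adjusted p = 0.00155) and Rxrg (-1.28 ± 0.22, adjusted p = 0.00643). For Smad3 and Rxrg the mFoxO-TKO changes were 0.16 ± 0.14 and -0.037 ± 0.16. A difference that missed the threshold does not show that the genotypes responded alike.

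**Figure D5:**
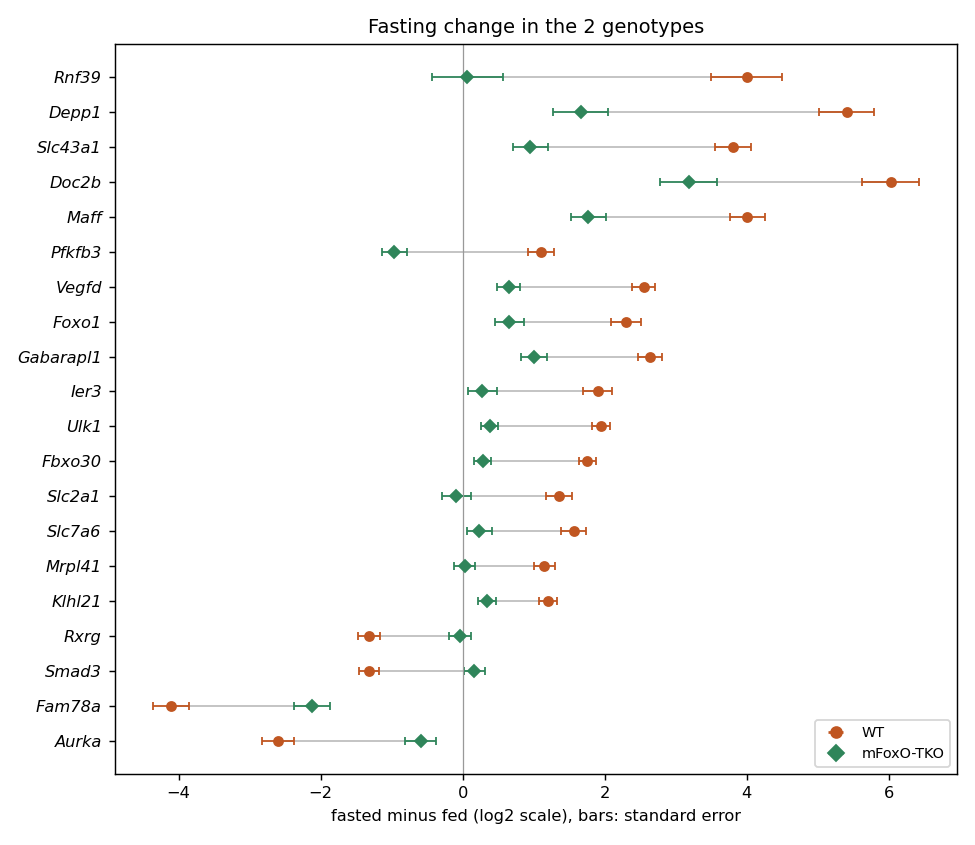
Points are the fasting changes (fasted minus fed, log2 scale) of 20 genes in WT and mFoxO-TKO muscle, with bars of 1 standard error and a line joining the genotypes. The WT changes lie farther from 0 than the mFoxO-TKO changes, with Rnf39 at 4.00 and 0.065, and Pfkfb3 lies on opposite sides at 1.1 and -0.96. The genes were named by their WT changes, which favours a larger change in WT.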

How the data were processed

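Spot intensities were deposited as scanner output of 1-colour (Cy3) arrays, quantified with Agilent Feature Extraction 11.0.1.1 and annotated on mm9 per the file headers, while the submitters' processing notes name version 9.5. The deposited gProcessedSignal intensity is background-subtracted within each array and not scaled between arrays. The authors' deposited value table is linear, with a 75th percentile of 100 on each array, and its unit is treated as a signal score. For values of 100 or more each column was a factor times the processed signal within 2%, and lower values were not checked in this way. Outlier marks (other values of 0 or 1 per the file headers) removed 0.143% to 3.28% of spots an array.

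Levels are log2 of that intensity minus the array's 75th percentile over non-control spots. Of 59305 spots, 55681 probes remained after averaging, 28331 of them with a RefSeq symbol (GRCm38.p6) matched through the accession. Kept were 28561 probes that all arrays of 1 or more groups detected well above background, and each gene took its brightest probe, giving 21273 genes (14142 with a symbol, the rest tested by identifier). Values were missing for 816 genes in at least 1 WT mouse. A limma 3.58.1 fit (R 4.3.3) over 4 groups of 4 arrays gave the WT change and its difference from mFoxO-TKO, adjusted by Benjamini-Hochberg. Simulated data with known changes were used to test the scripts. The rule for named genes gave 435: the 12 largest rises and 12 largest falls with groups apart, up to 5 of the largest in each direction per list and up to 2 per list that did not pass, chosen by the smallest standard error, passing over provisional symbols. The text describes 155 genes in detail, most with calls that held without any 1 array, of which 2 are outside the rule and were added after their values were seen, and the other genes of the rule are not reported here, except some named with their values to complete a list's count, which were also chosen after their values were seen. Members and lists were chosen with earlier results of these data known. Alternatives changed the scaling, background correction (normexp on the median spot and background intensity), filter, probe rule, samples and blocks. Array number limits precision.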

Additional observations from a re-analysis of the deposited data

Results flagged for a closer look

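In groups of 4 mice, 1 mouse stood apart from the other 3 by Dixon's criterion in 19 of 303 groups of levels tested, and chance alone flags about 1 in 20 groups. Fasted mouse 1 was the high one for Slc25a33 (5.79), Eif2ak4 (2.19), Usp54 (-0.29), Klf6 (4.83), Klf13 (1.47), Cry2 (6.12), Bcl2l1 (6.14) and Depp1 (7.38). Other fasted levels that stood apart were Slc25a1 in mouse 4 (-0.28), Stbd1 in mouse 2 (4.2) and Cdkn1a in mouse 3 (3.77). Among fed mice these were Slc25a1 (1.37), Foxk1 (-0.31) and Dusp4 (-4.93) in mouse 1, Pdp1 (3.45) and Inhba (-0.35) in mouse 2, Igf1 (1.43) and Depp1 (2.30) in mouse 3 and Sypl2 (3.95) in mouse 4. The share of spots well above background stood apart on the array of fed mouse 4 (68.0%).

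The fasting change differed between WT and mFoxO-TKO muscle (WT minus mFoxO-TKO, tested as an interaction) for the 20 genes described above. It was positive for Rnf39 (3.93), Depp1 (3.75), Slc43a1 (2.85), Doc2b (2.85), Maff (2.24), Pfkfb3 (2.06), Vegfd (1.90), Foxo1 (1.65), Gabarapl1 (1.64), Ier3 (1.63), Ulk1 (1.57), Fbxo30 (1.48), Slc2a1 (1.45), Slc7a6 (1.33), Mrpl41 (1.12) and Klhl21 (0.87). It was negative for Aurka (-2.01), Fam78a (-1.99), Smad3 (-1.48) and Rxrg (-1.28).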

How the results depend on the processing

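The count of 5302 genes that passed became 3406 after normexp background correction and 1366 within slide 1. Without any 1 array it was 4300 to 5807, and elsewhere 4309 to 6623. The count of 468 genotype differences became 181 after normexp, 202 without a filter on dim probes, 897 with slide as a block, 6 within slide 1, 43 within slide 2 and 244 with the percentile taken without outlier-marked spots, a setting chosen after seeing the data. Without any 1 array it was 248 to 582. With the replicate number as a block 6623 genes passed and 789 genotype differences did. Deviations of same-numbered fed and fasted mice correlated at 0.18, 0.0574, 0.147 and 0.317. Fasted mice 1, 3 and 4 each correlated best with the fed mouse of their number, and fasted mouse 2 with fed mouse 1 (0.236). In every group each number also stood for 1 array row of 1 slide. A pairing of the samples and a shared place on the arrays therefore cannot be told apart. All 142 named genes that passed kept their direction in every alternative, 85 of 128 passed within slide 1 and 131 of 139 within slide 2. These genes were chosen with their values known, so their stability is not a finding. Of all 5302 genes that passed, 1301 also passed within slide 1, 3499 within slide 2 and 3328 after normexp. Of 43 list counts of at least 5, 34 stayed within 1.5 times without any 1 array. The cause of these shifts was not tested. Weak signals limit what can be said of genes not well above background.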
